A study of Triticum aestivum with 15 samples.

Results

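Low-confidence gene models were counted in leaves and roots of bread wheat, at the start of iron starvation and during it. Of the 161371 models, 222 reached a mean of 50 CPM or more in at least 1 of the 5 sample groups. CPM, counts per 1000000, is a model's count scaled by the summed count of its library, and the mean was taken over the 3 libraries of a group. The 222 models were 0.138% of the low-confidence models, and they were chosen by these group means alone, so the levels themselves are a description. Under the same limit, 6576 of 107836 high-confidence models (6.10%) qualified, and these stand beside the 222 below. Of the low-confidence models, 32155 (19.9%) had any count, and 9979 had a group mean of 1 CPM or more.

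Wheat gene models are sorted into high- and low-confidence classes by how complete they are and how well they match known plant proteins. A low-confidence model can be a gene fragment, a pseudogene, a non-coding transcript, a piece of a mobile element or a real gene whose model is incomplete. Bread wheat is hexaploid and carries related A, B and D subgenomes, so most genes have sister copies, called homoeologues, on the chromosomes of one homoeologous group. Iron is needed for chlorophyll synthesis and for the iron-sulphur and haem proteins of photosynthesis, and grasses release phytosiderophores from their roots to take it up.

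All plants were wild-type wheat (Triticum aestivum) of the spring cultivar Fielder, grown in hydroponic boxes with 50 µM NaFeEDTA for 12 days and then with 0 µM for 11 days. The groups were roots on day 11 of deficiency, first leaves of day 0, first leaves of day 1, the third leaf of day 7 and the third to the fifth leaves of day 11. Each group had 3 libraries, which the titles number as replicates 1 to 3 and which are called plants 1 to 3 here. No iron-replete library later than day 0 was analysed here, so iron supply, plant age and leaf position cannot be told apart between days. Roots were sampled on day 11 only.

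The 15 libraries held 15434838 to 25552816 counts. A count of 0 in all 3 libraries of a group allows a mean of up to 0.0433 CPM in roots and 0.0452 to 0.0548 CPM in the leaf groups, taking 3 counts over the group as the limit and counting error only. The sources used here do not pair the models with gene names, and not 1 of the 222 had an entry in the name table, so no role is given for any of them and the labelled tissues could not be checked against marker genes. CPM takes no account of transcript length, so an order of models by CPM is an order of counts and not of molecules. Whether a lower count means fewer cells of a type or less RNA per cell cannot be told apart in such bulk samples. How reads from near-identical copies were counted is not given, so every single level below is uncertain where a model has a close copy elsewhere in the genome.

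The 222 models took similar small shares of all libraries. Their summed share of the counts was 1.58% ± 0.0265 in roots (SD, n = 3 in each group). In leaves it was 1.64% ± 0.123 on day 0, 1.46% ± 0.137 on day 1, 1.52% ± 0.0724 on day 7 and 1.37% ± 0.0315 on day 11. They held 28.7% ± 0.579 of all low-confidence counts in roots, and 37.3% ± 2.98, 35.8% ± 1.17, 33.4% ± 0.481 and 27.1% ± 0.359 in leaves of days 0, 1, 7 and 11. The median of their highest group means was 92.6 CPM, with quartiles of 64.7 and 155 CPM, beside a median of 88.7 CPM for the 6576 high-confidence models. In 101 models the highest group mean was at least 100 CPM, in 9 at least 500 CPM and in 4 at least 1000 CPM. The 10 models with the highest CPM of a group held 34.5% of the 222 models' CPM in roots and 25.4% to 29.9% in the leaf groups. At the edge of the rule, TraesCS1D02G301000LC with 50.2 CPM and TraesCS4B02G243300LC with 50.4 CPM lay just inside, and TraesCS4B02G224300LC with 49.97 CPM and TraesCS1D02G576500LC with 49.5 CPM just outside. By subgenome, 64 models were on A, 81 on B and 67 on D chromosomes, and 10 on no assigned chromosome. These were 28.8%, 36.5%, 30.2% and 4.50% of the 222, beside 31.9%, 36.1%, 27.8% and 4.19% of all low-confidence models and 33.5%, 31.3%, 34.1% and 1.00% of the high-confidence models under the same limit.

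More of the models were highest in roots than in any single leaf group. The highest mean was in roots for 86 of the 222 models (38.7%), and in leaves of day 0 for 36 (16.2%), day 1 for 32 (14.4%), day 7 for 28 (12.6%) and day 11 for 40 (18.0%). The high-confidence models under the same limit were spread in much the same way, with 36.4% highest in roots and 16.2%, 15.8%, 12.1% and 19.6% in leaves of days 0, 1, 7 and 11. These shares move with the scaling. TMM scaling, which sets libraries level on their typical gene, had factors of 1.30 to 1.34 for roots, 0.80 to 0.89 for day 0, 0.77 to 0.83 for day 1, 0.94 to 1.00 for day 7 and 1.15 to 1.19 for day 11 leaves. On that scale the same 222 models were highest in roots in 70 cases, and in leaves of days 0, 1, 7 and 11 in 50, 45, 27 and 30 cases. When the models were chosen again on that scale, 58 of 205 were highest on day 0 and 47 in roots.

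**Figure D1:**
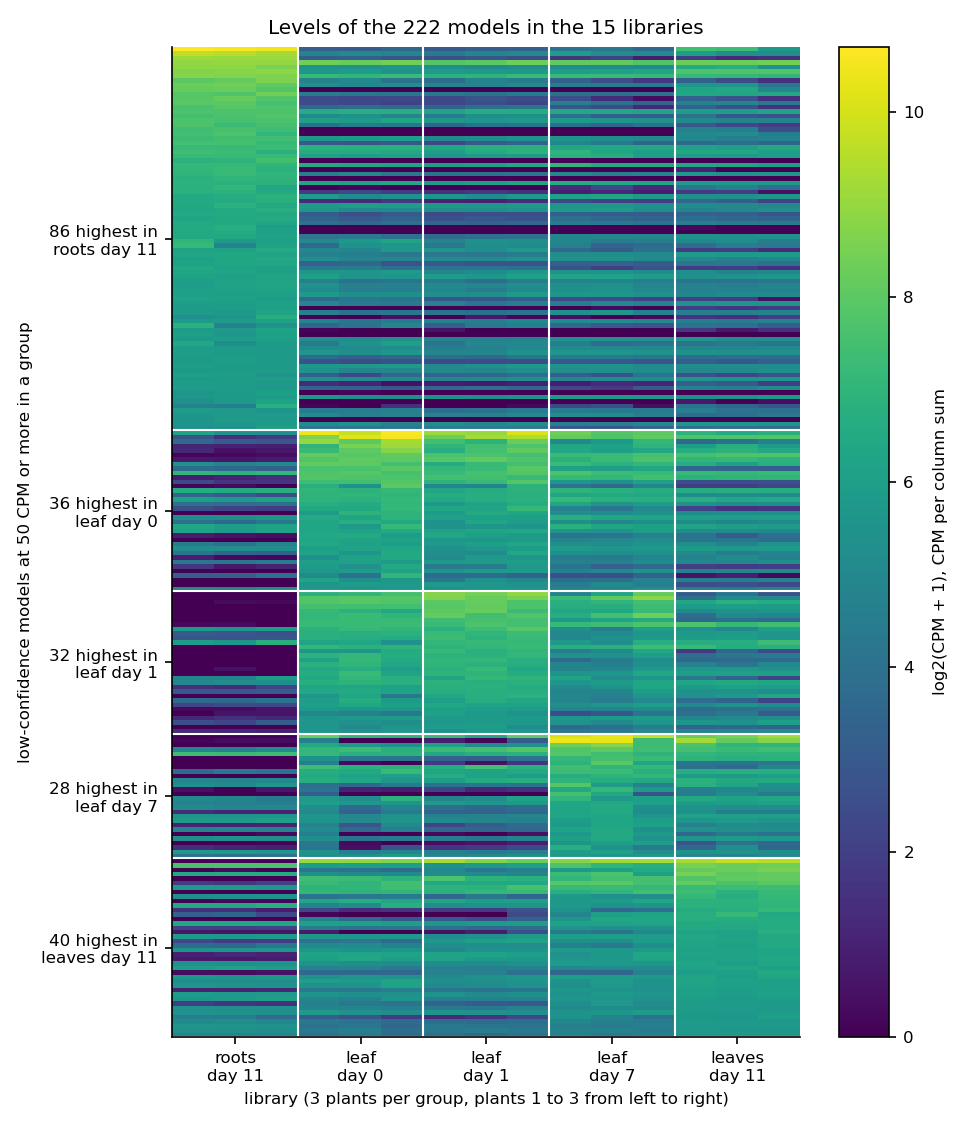
Levels of the 222 low-confidence models (rows) in the 15 libraries (columns), as log2(CPM + 1) with CPM per column sum. Rows are grouped by the group of their highest mean and sorted by that mean. The block of 86 root models is bright in all 3 root libraries, and many rows of the leaf blocks are dark in roots.

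**Figure D2:**
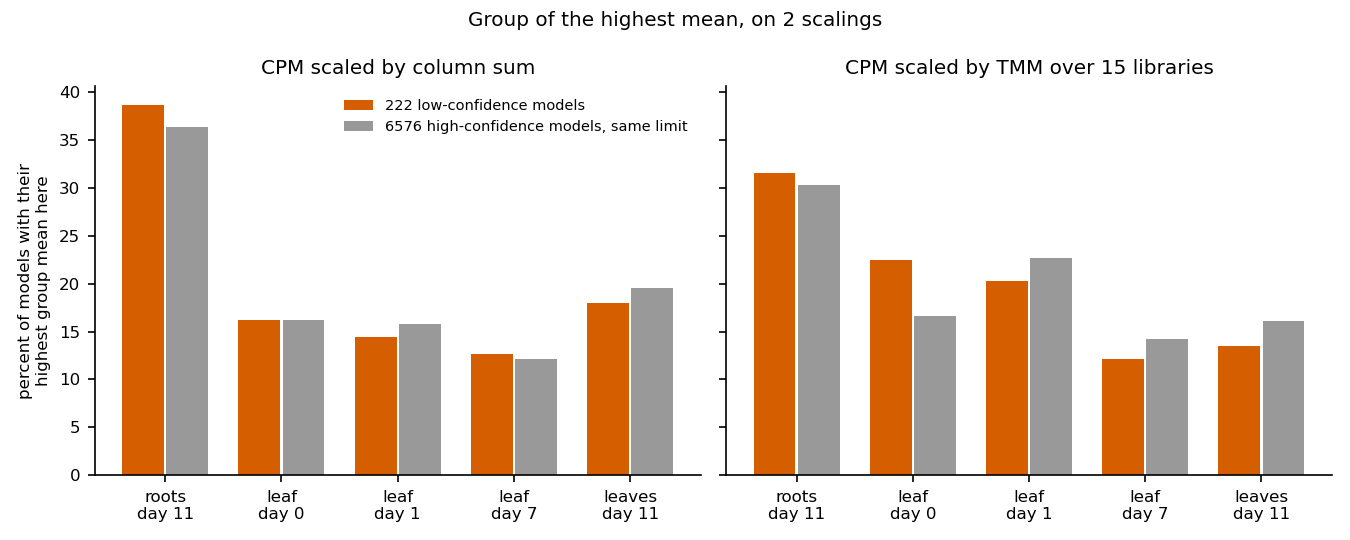
Percent of the 222 low-confidence models (orange) and of the 6576 high-confidence models under the same limit (grey) whose highest group mean lay in each group. The left panel uses CPM per column sum and the right panel the same models scaled by TMM over the 15 libraries. On the left 38.7% of the low-confidence and 36.4% of the high-confidence models were highest in roots.

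The split between roots and leaves was sharp for many of the models. Of the 222, 116 (52.3%) reached 50 CPM in leaf groups only, 63 (28.4%) in roots only and 43 (19.4%) in both, beside 51.2%, 22.8% and 25.97% of the high-confidence models. Roots were at least 4 times every leaf group in 40 models (18.0%), beside 11.45% of the high-confidence models. Roots were at most a hundredth of the highest leaf group in 53 models (23.9%), beside 18.2%. On the TMM scale these counts were 34 and 56. Of the 116 leaf-only models, 50 (43.1%) were under 1 CPM in roots and 23 (19.8%) had no count in any root library, beside 33.5% and 14.2% of the leaf-only high-confidence models. Of the 63 root-only models, 9 (14.3%) were under 1 CPM in every leaf group and 3 (4.76%) had no count in any leaf library. For the root-only high-confidence models these shares were close, at 13.3% and 3.67%. In 24 models (10.8%) all 5 group means lay within 2-fold of each other, beside 7.27% of the high-confidence models. On the TMM scale this difference was gone, with 27 models (12.2%) beside 12.8%. Between leaf days the lead of the highest group was seldom large: it was at least 2 times the next group in 4 of the 36 models highest on day 0, 4 of 32 on day 1, 11 of 28 on day 7 and 9 of 40 on day 11, beside 54 of the 86 highest in roots.

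The model with the highest CPM of all was a root model. TraesCS4B02G400500LC stood at 1662, 1566 and 1374 CPM in the roots of plants 1, 2 and 3. In leaves it stood at 8.52, 8.03 and 10.8 CPM on day 0, at 7.15, 8.57 and 8.63 CPM on day 1, at 16.0, 17.9 and 11.7 CPM on day 7 and at 173, 159 and 54.4 CPM on day 11. All root libraries were far above all leaf libraries, and all day 11 leaves above all earlier leaves, with plant 3 the lowest of the day 11 leaves. TraesCS7A02G738600LC was nearly restricted to roots, at 562, 530 and 545 CPM there, against 2.74, 1.40 and 1.96 CPM in leaves of the same day. Its leaf means were 7.66, 5.40, 2.18 and 2.04 CPM on days 0, 1, 7 and 11. TraesCS3D02G388600LC averaged 728 ± 104 CPM in roots, against 46.6 CPM in leaves of day 11, and TraesCS2A02G397300LC averaged 438 ± 51.9 CPM in roots (SD, n = 3), against 78.6 CPM. TraesCS5A02G034300LC stood at 112, 127 and 124 CPM in roots and had no count in any of the 12 leaf libraries.

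A few root models were counted in leaves on day 11 and not before. In 15 models roots were at 50 CPM or more while the leaves of days 0, 1 and 7 were each under 1 CPM. Of these, 14 reached 50 CPM in roots only, which is 22.2% of the 63 root-only models, beside 18.6% of the root-only high-confidence models. In leaves of day 11, 6 of the 15 were at 1 CPM or more. Of these 6, 3 had no count at all in the 9 leaf libraries of days 0, 1 and 7. A further pair without earlier leaf counts stayed under 1 CPM on day 11, with 21 counts for TraesCS7B02G687800LC and 19 for TraesCS2D02G410400LC over the 3 libraries. TraesCS4A02G127900LC stood at 290, 297 and 218 CPM in roots, against 78.0, 86.3 and 29.7 CPM in leaves of day 11. TraesCS2B02G669200LC stood at 177, 206 and 130 CPM in roots, against 32.8, 36.8 and 22.4 CPM in leaves of day 11. TraesCS6B02G288100LC stood at 171, 188 and 167 CPM in roots, against 24.1, 23.5 and 5.18 CPM in leaves of day 11. For all 3, the day 11 leaves of plant 3 were the lowest, as they were for TraesCS4B02G400500LC and TraesCS2A02G397300LC. The leaf level on day 11 was 24.1%, 18.0% and 10.0% of the root level for these 3 models. The rest of the 6, TraesCS4B02G487300LC, TraesCS7D02G135100LC and TraesCS6A02G488600LC, were instead lowest in plant 2, at 2.06, 1.82 and 0.701 CPM. Their day 11 leaves of plant 3 stood at 2.77, 3.12 and 1.91 CPM. The 9 of the 15 that stayed under 1 CPM in day 11 leaves summed to 787 CPM in roots and to 0.752 CPM in day 11 leaves, which is 0.0955% of their root level, and 4 of the 9 had no count there.

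Several of the leaf models with the most counts were highest in the first leaf and lower in each later leaf. TraesCS3D02G150400LC stood at 1366, 883 and 1585 CPM on day 0, 557, 529 and 1116 CPM on day 1, 327, 228 and 254 CPM on day 7 and 119, 91.9 and 108 CPM on day 11. The libraries of days 0 and 1 overlapped, whereas all of day 7 lay below both and all of day 11 below day 7. In roots this model stood at 70.2, 44.1 and 38.5 CPM. TraesCS7B02G663400LC averaged 1002 ± 546, 527 ± 187, 252 and 211 CPM in leaves of days 0, 1, 7 and 11 and 3.34 CPM in roots. On day 0 its libraries spread over 399, 1143 and 1464 CPM, with plant 1 the lowest. TraesCS3A02G439500LC averaged 457, 197, 72.1 and 17.2 CPM in leaves of days 0, 1, 7 and 11 and 8.55 CPM in roots. On column-sum CPM, group means fell at each step from day 0 to day 11 in 37 of the 222 models (16.7%), beside 12.5% of the high-confidence models, and climbed at each step in 11 (4.95%), beside 8.96%.

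Other leaf models were highest in the later leaves. TraesCS3D02G637600LC stood at 304, 131 and 113 CPM on day 0, 143, 75.5 and 266 CPM on day 1, 1054, 1272 and 849 CPM on day 7 and 304, 370 and 594 CPM on day 11. Its day 7 libraries were above all others, and its root libraries held 1 count in all. TraesCS5D02G259800LC stood at 24.3, 0 and 0 CPM on day 0, 0.943, 0.178 and 7.67 CPM on day 1, 1396, 1251 and 161 CPM on day 7 and 595, 280 and 425 CPM on day 11. It was near 0 in the first leaf except in plant 1 on day 0 and plant 3 on day 1, and plant 3 was far below the other plants on day 7. TraesCS5A02G397000LC had the highest CPM of the 222 in leaves of day 11, at 611, 848 and 754 CPM. It was high in all leaves, with means of 460, 440, 532 and 737 CPM on days 0, 1, 7 and 11, and stood at 0, 0.0837 and 0.0783 CPM in roots. TraesCS6D02G493900LC averaged 328 ± 28.8 CPM in leaves of day 11 (SD, n = 3).

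A smaller set varied little. TraesCS4D02G331400LC stood at 489, 514 and 502 CPM in roots, and averaged 323, 267, 254 and 323 CPM in leaves of days 0, 1, 7 and 11, the highest lowest mean of the 222. TraesCS7B02G007700LC averaged 128 CPM in roots and 215, 190, 173 and 145 CPM in leaves of days 0, 1, 7 and 11. TraesCS1D02G507900LC also stayed at 128 CPM or more in all groups but was higher in roots, at 406 CPM, than in leaves, at 144, 128, 146 and 135 CPM on days 0, 1, 7 and 11. TraesCS5B02G701700LC had the smallest ratio of highest to lowest group mean, 1.30, followed by TraesCS5D02G512700LC with 1.35 and TraesCS1B02G794000LC with 1.37. On column-sum CPM 18 of the 222 models were at 50 CPM or more in all 5 groups.

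**Figure D3:**
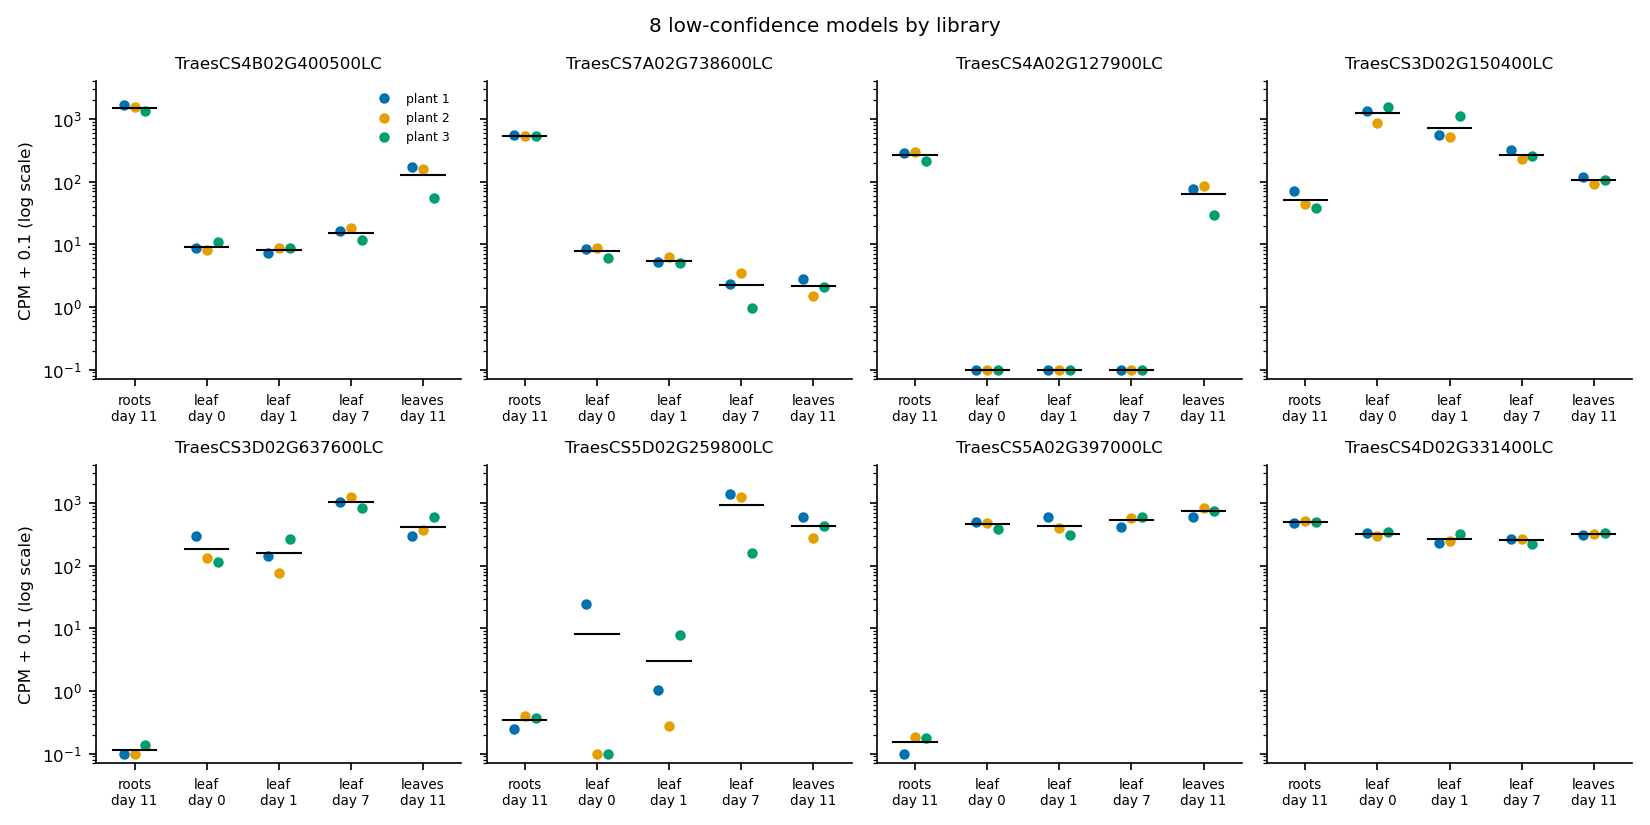
CPM + 0.1 (log scale) of 8 low-confidence models in each library, by group, with points for plants 1 to 3 and a bar for the group mean. TraesCS4A02G127900LC lies at 0 in all leaves before day 11, TraesCS3D02G150400LC falls along the leaf days, and plant 3 lies apart for TraesCS5D02G259800LC on day 7 at 161 CPM.

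Differences between groups were tested over all genes with edgeR's quasi-likelihood test, calling a gene at a Benjamini-Hochberg adjusted p under 0.05. Because a model picked for a high mean in a compared group had to be high there, the counts below take only models at 50 CPM or more in a group outside the comparison. Where a group outside the comparison resembles one inside it, this choice still favours a direction, so high-confidence models chosen in the same way are set beside. The changes are relative to the typical gene, since the tests use TMM scaling. TMM factors taken over all 15 libraries shift log2 fold changes against column-sum CPM. The shifts are 0.09 for day 1 over day 0, -0.21 for day 7 over day 0 and -0.48 for day 11 over day 0. They are -0.27 for day 11 over day 7 and -0.17 for roots over leaves. The tests took their factors within the fits of 12 leaf libraries or 6 libraries of day 11. Their own shifts can therefore differ from these, and the one for roots over leaves is smaller.

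Between days 0 and 1 almost none of the models passed the test. Among the 187 tested ones that were at the level outside the comparison, day 1 exceeded day 0 in 1 model and fell below it in 1, or 1.07% called. This is near the share over all 62841 genes tested, of which 1.29% were called, 0.759% higher and 0.535% lower. High-confidence models chosen in the same way were higher in 1.75% and lower in 0.975%. TraesCS2B02G205900LC stood at 50.8, 65.4 and 71.0 CPM on day 1, against 16.0, 18.1 and 12.7 CPM on day 0. All day 1 libraries were above all day 0 libraries, with a log2 fold change of 2.09 ± 0.23 (SE, edgeR quasi-likelihood test, adjusted p = 0.0047). TraesCS7D02G039800LC stood at 9.38, 7.36 and 6.92 CPM on day 1, against 24.3, 18.9 and 15.6 CPM on day 0, and its groups did not overlap either (log2 fold change -1.22 ± 0.19, edgeR adjusted p = 0.02). Neither call was kept without plant 1 or without plant 2, when no model was called, and TraesCS7D02G039800LC was not called without plant 3 either. All genes called numbered 0, 0 and 115 without plants 1, 2 and 3, against 813 with all plants. With DESeq2 12 models were called, 5 higher and 7 lower, beside 4343 of all genes. At an unadjusted p under 0.05, edgeR had 45 of the 187 models and 11615 of the 62841 genes.

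By day 7 more of the models were called lower than higher. The third leaf of day 7 exceeded first leaves of day 0 in 28 of 196 tested models (14.3%) and fell below them in 71 (36.2%), with a median log2 fold change of -0.20. All genes tested were called in 28.2% of cases, 14.3% higher and 13.9% lower, with a median of 0.09. High-confidence models at the level outside the comparison were higher in 21.1% and lower in 26.8%. On column-sum scaling, an alternative chosen after seeing the data, the low-confidence models gave 40 higher and 55 lower. The shares of all genes and of high-confidence models, here and for the later comparisons, are from the TMM fits only. The number of models called was 63 without plant 1, 16 without plant 2 and 99 without plant 3, and all genes called numbered 9419, 2389 and 17341, against 17732 with all plants.

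The 3 models named for the largest increases on day 7 had few or no counts in first leaves of day 0, except TraesCS5D02G259800LC in plant 1. TraesCS3D02G306500LC stood at 29.4, 66.9 and 72.1 CPM on day 7, against 0.151, 0 and 0 CPM on day 0, a pooled ratio of 1010 with an exact 95% interval of 345 to 4890 for counting error only (edgeR adjusted p = 0.0022). TraesCS2B02G785910LC stood at 20.2, 16.3 and 31.3 CPM on day 7, against 0.705, 0 and 0 CPM on day 0 (log2 fold change 6.28 ± 1.05, edgeR adjusted p = 0.0019). For TraesCS5D02G259800LC, described above, the log2 fold change was 6.68 ± 1.94 (edgeR adjusted p = 0.026). In all 3 models the day 0 counts came from plant 1, and each lost its call without plant 2. TraesCS5D02G259800LC also lost it when only the 6 libraries compared were fitted. Among the largest decreases, TraesCS3D02G150400LC changed by a log2 fold of -2.47 ± 0.32 (edgeR adjusted p = 0.00055) and TraesCS3A02G439500LC by -2.87 ± 0.59 (edgeR adjusted p = 0.0053). TraesCS3B02G203300LC stood at 15.7, 11.6 and 29.0 CPM on day 7, against 108, 41.6 and 253 CPM on day 0 (-3.07 ± 0.72, edgeR adjusted p = 0.01). The last 2 lost their calls without plant 1 or plant 2.

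Leaves of day 11 against day 0 gave the most calls among the leaf comparisons. Day 11 exceeded day 0 in 29 of 191 tested models (15.2%) and fell below it in 100 (52.4%), with a median log2 fold change of -0.61. Among all genes tested 44.3% were called, 21.6% higher and 22.7% lower, with a median of 0.12. The high-confidence models chosen in the same way were higher in 27.8% and lower in 42.3%. On column-sum scaling the low-confidence models gave 49 higher and 68 lower, with no count of the other sets given on that scaling. The largest increases were those of the 3 root models given above by library. Taking 3 counts over the group as the floor on day 0, TraesCS4A02G127900LC was at least 1180-fold higher, TraesCS2B02G669200LC at least 559-fold and TraesCS6B02G288100LC at least 321-fold (edgeR adjusted p = 0.00045, 7.9e-05 and 0.0025). Among the largest decreases, TraesCS1D02G040000LC stood at 5.04, 5.19 and 5.34 CPM on day 11, against 163, 173 and 226 CPM on day 0 (log2 fold change -5.66 ± 0.32, edgeR adjusted p = 6.2e-07). TraesCS1A02G050000LC changed by a log2 fold of -5.85 ± 0.40 (edgeR adjusted p = 1.8e-06) and TraesCS3B02G203300LC by -5.90 ± 0.83 (edgeR adjusted p = 0.00022).

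Between days 7 and 11 the models again were lower more often than higher. Day 11 exceeded day 7 in 18 of 176 tested models (10.2%) and fell below it in 68 (38.6%), with a median log2 fold change of -0.40. All genes tested were called in 21.9%, 8.74% higher and 13.2% lower, with a median of -0.07. High-confidence models chosen in the same way were higher in 17.0% and lower in 33.9%. On column-sum scaling the low-confidence models gave 30 higher and 37 lower, with no count of the other sets given on that scaling. Without plant 1 the number of low-confidence models called was 38, without plant 2 it was 26 and without plant 3 it was 76. All genes called fell to 5149, 3357 and 10884 in the same fits, against 13767 with all plants. TraesCS2A02G463300LC stood at 14.4, 33.6 and 31.1 CPM on day 11, against 157, 263 and 458 CPM on day 7, with no overlap (log2 fold change -3.74 ± 0.43, edgeR adjusted p = 0.00024). TraesCS7D02G066200LC stood at 7.78, 15.8 and 5.79 CPM on day 11, against 26.2, 80.7 and 281 CPM on day 7 (-4.01 ± 0.76, edgeR adjusted p = 0.0039), and lost its call without plant 2. On day 1 it had been at 420, 353 and 491 CPM.

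**Figure D4:**
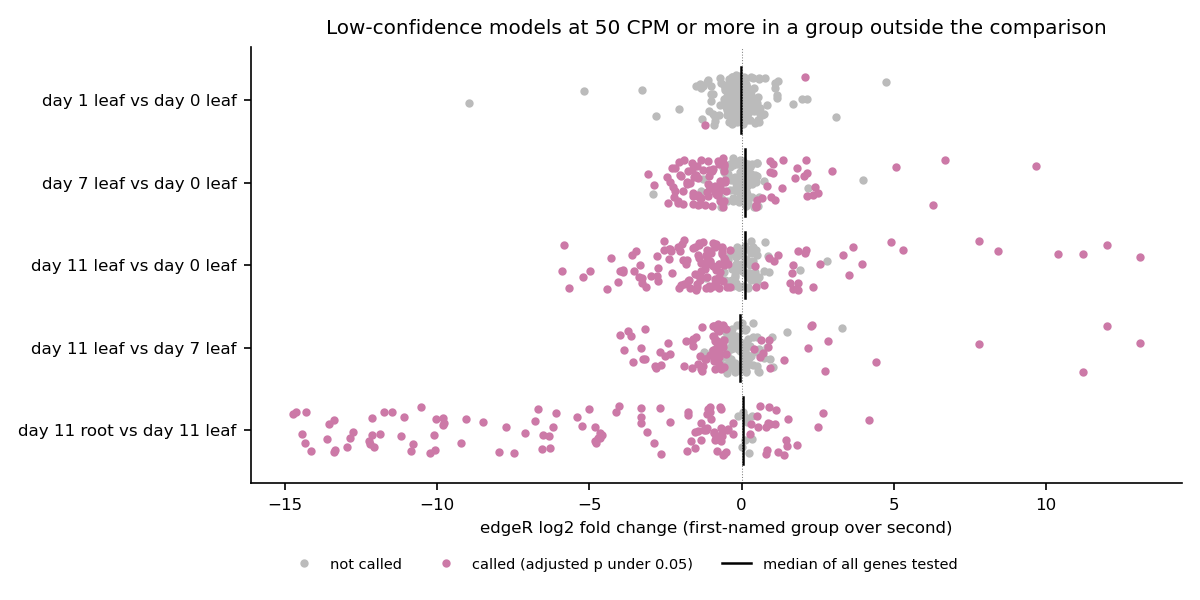
edgeR log2 fold change (first-named over second-named group) of each low-confidence model at 50 CPM or more in a group outside the comparison, pink where called. Black bars mark the median of all genes tested, and large values against a group with few or no counts depend on the prior count. In the 3 comparisons of later leaves pink points lie more often left of 0, with 71, 100 and 68 models lower; on column-sum scaling the numbers are 55, 68 and 37.

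Roots and leaves of day 11 differed in most of the models. The 137 models tested that reached 50 CPM in a leaf group of days 0, 1 or 7 were higher in roots in 22 cases (16.1%) and lower in 106 (77.4%), with a median log2 fold change of -2.34. Since all groups outside this comparison are leaves, the direction of that count is largely fixed by the choice. The high-confidence models chosen in the same way were higher in 14.8% and lower in 72.3%, and all 67922 genes tested were called in 68.4%, 35.7% higher and 32.7% lower. Among models higher in roots, TraesCS7B02G591100LC stood at 204, 194 and 197 CPM in roots, against 33.5, 26.4 and 25.5 CPM in leaves (log2 fold change 2.69 ± 0.13, edgeR adjusted p = 1.9e-06). TraesCS4D02G242700LC stood at 160, 176 and 170 CPM in roots, against 30.9, 23.0 and 27.4 CPM in leaves (2.52 ± 0.13, edgeR adjusted p = 2.3e-06). Both had no overlap between root and leaf libraries of day 11. TraesCS1B02G470200LC had the largest log2 fold change among these, 4.17 ± 0.40 (edgeR adjusted p = 5.6e-05), at 8.54, 8.83 and 13.9 CPM in roots, against 0.538, 0.842 and 0.201 CPM in leaves of day 11.

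On the other side, some of the leaf models with the most counts had 1 or 0 counts in roots. TraesCS3D02G637600LC had 1 count in the 3 root libraries, a pooled ratio of leaf over root of 29100 with an exact 95% interval of 5230 to 1150000 for counting error only (edgeR adjusted p = 8.7e-07). TraesCS7D02G276900LC and TraesCS5B02G017900LC had no root count and were at least 3260-fold and at least 3460-fold lower in roots than in leaves of day 11 (edgeR adjusted p = 2e-06 and 4.1e-06). TraesCS5A02G034300LC, chosen through its root level and given with no test, was at least 2490-fold higher in roots than in leaves of day 11.

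High-confidence models with neighbouring numbers seldom had the profile of the low-confidence one, and they need not be neighbours on the chromosome. The numbers of the 2 classes form separate series: 99.0% of the high-confidence numbers also occur as low-confidence numbers on the same chromosome, and the table lists the classes in separate blocks. A high-confidence ID with the same or the nearest number is therefore a neighbour in number only, and positions were not used here. Models numbered past the last high-confidence ID of their chromosome were set beside that last ID. The gap can be large, as the 183000 numbers between TraesCS7D02G738300LC and TraesCS7D02G555300. Of the 222 nearest high-confidence IDs, 73 (32.9%) had no count in any library, 97 (43.7%) reached 1 CPM and 9 (4.05%) reached 50 CPM. The highest group was the same as that of the low-confidence model in 31 of the 97 (32.0%), and Pearson's r of log2(CPM + 1) over the 15 libraries had a median of 0.05 with quartiles of -0.65 and 0.67. For the 9757 low-confidence models of 1 to under 50 CPM, the nearest high-confidence IDs shared the highest group in 31.1%, with a median r of 0.20. Pairing the 222 models at random with high-confidence models at 1 CPM or more would give the same highest group in 26.7%. The libraries fall into 5 groups that all of these values share, so r is a description.

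The 9 neighbours in number at 50 CPM or more were 7 different IDs, shared the highest group in 2 cases and had r under 0 in 6. TraesCS5D02G569800, the last high-confidence number on 5D, was paired with TraesCS5D02G576800LC, TraesCS5D02G596810LC and TraesCS5D02G639700LC, at number gaps of 7000, 27010 and 69900. It shared the highest group with TraesCS5D02G596810LC only (r = 0.91). The examples below were chosen after their values were seen. TraesCS7B02G338200LC averaged 0.151 CPM in roots and 151, 177, 171 and 169 CPM in leaves of days 0, 1, 7 and 11, while the high-confidence TraesCS7B02G338200 of the same number averaged 205 CPM in roots and 44.7, 78.9, 6.97 and 9.24 CPM in leaves. TraesCS3A02G482200LC and TraesCS3A02G482200 were both highest on day 7, at 119 and 472 CPM. They differed in the first leaf, at 76.4 CPM for the low-confidence model and 12.0 CPM for the high-confidence one on day 0.

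Low-confidence models next to each other in number had higher r, again as a description. Of the 444 low-confidence IDs just before or after the 222 models, 301 (67.8%) had no count in any library, 54 (12.2%) reached 1 CPM and 14 (3.15%) reached 50 CPM. For the low-confidence models of 1 to under 50 CPM these shares were 62.0%, 18.5% and 0.205%. Where the neighbour reached 1 CPM, it had the same highest group in 29 of 54 cases (53.7%), with a median r of 0.86 and r above 0.9 in 44.4%. The 14 neighbours at 50 CPM or more are themselves among the 222, so their 7 pairs enter the 54 cases from each side. The 6 of these pairs with r above 0.9 likewise enter the 44.4% from each side. The models of 1 to under 50 CPM shared the highest group in 57.4%, with a median r of 0.67 and r above 0.9 in 15.5%. These models have lower counts, which add noise to r, and r was not compared at equal counts. The higher r therefore cannot be read as a trait of the 222 models.

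The 14 neighbours that reached 50 CPM form 7 pairs of adjacent models, and 6 of the 7 pairs had r above 0.9. TraesCS2A02G463200LC and TraesCS2A02G463300LC had no root count and moved together in leaves (r = 0.999), with means of 140, 227, 203 and 24.9 CPM for the first and 230, 358, 292 and 26.4 CPM for the second on days 0, 1, 7 and 11. The second was 1.05 to 1.76 times the first in the 12 leaf libraries. TraesCS3D02G150300LC was a low companion of TraesCS3D02G150400LC, with leaf means of 62.6, 32.0, 12.8 and 2.89 CPM on days 0, 1, 7 and 11 (r = 0.993). TraesCS3D02G150400LC was 18.1 to 27.7 times the other in the 9 libraries where each had at least 100 counts. TraesCS5B02G416400LC and TraesCS5B02G416500LC were root models, at 216 and 249 CPM in roots, against 5.74 and 5.48 CPM in leaves of day 11.

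A pair on chromosome 7A and a pair on 7D resembled each other. TraesCS7A02G312600LC and TraesCS7A02G312700LC averaged 1.22 and 0.702 CPM in roots and 210 and 70.9 CPM in leaves of day 0. TraesCS7D02G297300LC and TraesCS7D02G297400LC averaged 0.197 and 0.112 CPM in roots and 262 and 87.6 CPM in leaves of day 0. In both pairs the second was a median of 0.387 times the first. The pair that broke the pattern was TraesCS4B02G400500LC and TraesCS4B02G400600LC (r = 0.58): the first is the root model with the highest CPM, and the second averaged 53.3 CPM in roots and 32.0, 22.7, 55.4 and 43.8 CPM in leaves of days 0, 1, 7 and 11. Its ratio to the first ran between 0.0329 and 5.12 over the 15 libraries.

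Models with the same profile also occurred across subgenomes. Of the 212 models on an assigned chromosome, 37 (17.5%) had their most alike partner among the 222, by Pearson's r of log2(CPM + 1) over 15 libraries, on another subgenome's chromosome of the same homoeologous group, where 9.42% of the other models lie. The median r with the most alike partner was 0.98. Sets with 1 model on each of the A, B and D chromosomes of a group and all r of 0.98 or more were looked for after the values had been seen, and 10 such sets were found. Of these, 8 were on group 7 and shared TraesCS7B02G338200LC, so sets were taken in order of their lowest r with no model used again, which left 3. Whether they are copies of 1 gene was not tested, and where copies are near-identical their reads can be counted on one another.

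The set on group 7 was expressed in leaves at an even level and hardly at all in roots. TraesCS7A02G288500LC, TraesCS7B02G338200LC and TraesCS7D02G276900LC averaged 0, 0.151 and 0 CPM in roots and 123, 151 and 128 CPM in leaves of day 0, and 115, 169 and 141 CPM in leaves of day 11. The set on group 1 was lower in the later leaves: TraesCS1A02G050000LC, TraesCS1B02G055700LC and TraesCS1D02G040000LC averaged 106, 215 and 187 CPM on day 0, 97.0, 174 and 165 CPM on day 1, 25.3, 72.2 and 53.9 CPM on day 7 and 2.58, 9.64 and 5.19 CPM on day 11. In roots they averaged 3.58, 10.8 and 2.77 CPM. TraesCS1B02G055700LC, like the other two tested above, fell between days 0 and 11 (log2 fold change -4.97 ± 0.27, edgeR adjusted p = 5.4e-07). The set on group 5 was a root set. TraesCS5A02G350410LC, TraesCS5B02G365610LC and TraesCS5D02G308510LC averaged 57.5, 86.7 and 90.3 CPM in roots, against 7.92, 11.6 and 8.29 CPM in leaves of day 11. Along their chromosomes' low-confidence series, the numbers of a set lie at 7.55%, 6.97% and 6.37% for group 1 and at 47.4%, 45.1% and 46.5% for group 5. For group 7 they lie at 35.4%, 40.5% and 37.0%. How close the numbers of other models lie was not counted, so these places are a description and do not bear on the choice of sets.

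**Figure D5:**
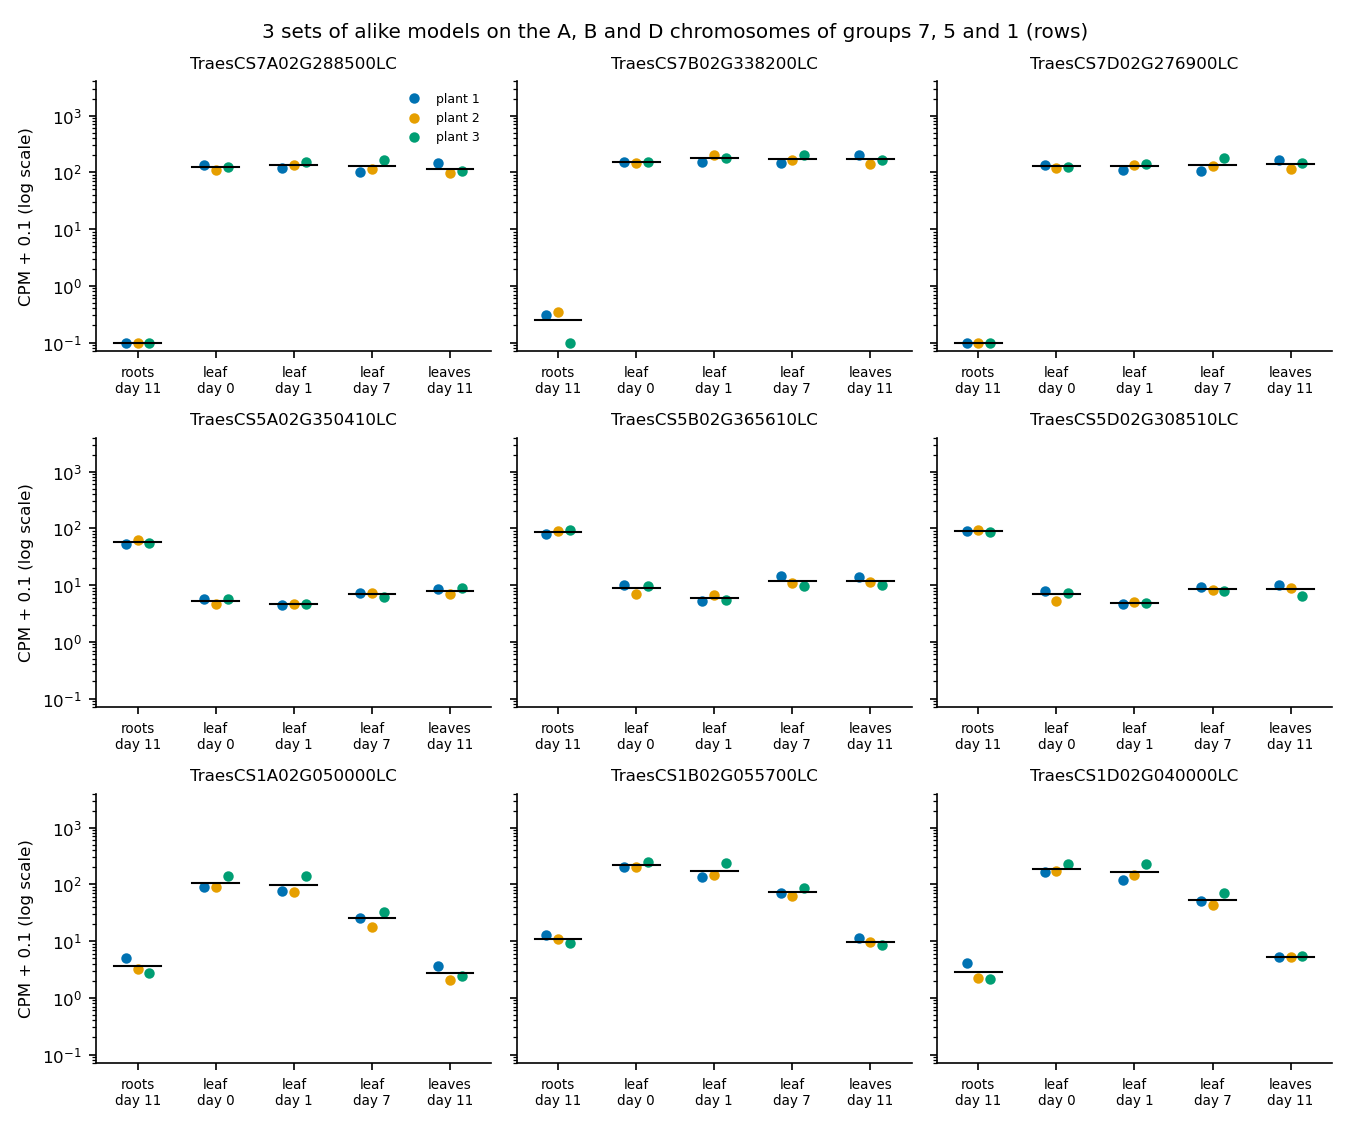
CPM + 0.1 (log scale) by library of 9 models in 3 sets (rows: homoeologous groups 7, 5 and 1; columns: A, B and D chromosomes), with points for plants 1 to 3 and bars for group means. Each row repeats one shape: leaf only on group 7, high in roots on group 5, and falling to 2.58, 9.64 and 5.19 CPM in leaves of day 11 on group 1.

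The spread between plants had a higher median for these models than for the high-confidence ones in all 5 groups, a difference that was not tested. The coefficient of variation over the 3 libraries of a group, for models at 50 CPM or more in it, had a median of 9.89% in roots, and of 14.4%, 16.0%, 22.7% and 9.81% in leaves of days 0, 1, 7 and 11. For the high-confidence models it was 8.30% in roots and 12.0%, 10.6%, 22.4% and 9.23% in leaves. The widest spreads were in leaves. TraesCS5B02G564000LC stood at 225, 52.2 and 24.7 CPM on day 7, TraesCS7D02G066200LC at 26.2, 80.7 and 281 CPM on day 7, and TraesCS1B02G470200LC at 31.3, 15.2 and 129 CPM on day 0. In each of the 3 a single plant set the mean, and only 2 of them were high in the same plant.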

How the data were processed

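The authors deposited a single table of featureCounts output, holding raw whole-number counts for 269207 IDs in 15 libraries with no normalization. Per the labels, a stranded mRNA kit was used and libraries were read as 150 nt pairs. Tools named in the submitters' processing notes were HISAT2 2.2.1, featureCounts 2.0.3, StringTie 2.2.3, Trim Galore 0.6.7, MultiQC 1.11 and FastQC 0.74. The genome build was not given in the sources used here, nor were the annotation version, strand setting or handling of reads with several matches. Sequence differences between Fielder and the reference, overlapping or antisense models and near-identical copies make single counts uncertain. The name table used here lists 155467 wheat genes under other IDs (assembly IWGSC CS RefSeq v2.1), and 0 of the 222 models matched it.

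CPM were computed from the counts per column sum. Tests ran on the whole table with edgeR 4.0.16 in R 4.3.3 (TMM, filterByExpr, glmQLFit and glmQLFTest, group as the only term, Benjamini-Hochberg over all genes). The 12 leaf libraries shared 1 fit for the 4 leaf comparisons (62841 genes), and the 6 libraries of day 11 another (67922 genes). Of the 222 models, 213 passed the filter of the leaf fit and 222 that of day 11; the other 9 are root models. SEs were derived from the F statistic, as the log2 fold change over the root of F. Exact intervals are Clopper-Pearson at 95%. The code of both fits was run on simulated data in which a small set of well-counted genes was changed, equally up and down. That run does not cover data in which a large part of the genes change. Models were named by rule: the 5 highest per group, the 3 largest called changes in each direction per comparison plus the largest over all, those next to the 50 CPM limit, adjacent pairs, the extremes of group ratio and of spread between plants, and the steadiest. The sets across subgenomes, the root models seen in late leaves and the examples of high-confidence neighbours fall outside it and were chosen after their values were seen. The models, the lists and the tests were chosen with earlier results of these data known.

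The titles number 3 replicates in each group, and a number was taken to stand for the same plant in all groups. The main tests did not pair libraries by plant, which only the fit with a plant block did. Deviations from group means correlated across genes at -0.146 to 0.243 for 18 same-plant pairs of leaf libraries (median 0.003), and at -0.326 to 0.278 for 36 pairs of different plants (median -0.0065). Alternatives were RLE scaling, no filter, DESeq2 1.42.0, a plant block, all 15 or only 6 libraries in the fit, single plants or libraries left out, other limits of membership and, chosen after seeing the data, column-sum scaling.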

Additional observations from a re-analysis of the deposited data

How the results depend on the processing

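The number of models was 523 at a limit of 25 CPM and 101 at 100 CPM, and 219 to 227 with 1 plant left out. Choosing the models again on TMM-scaled CPM gave 205 models, of which 189 were the same, with 47 highest in roots and 58, 49 and 23 in leaves of days 0, 1 and 11. For day 1 over day 0, DESeq2 called 12 models, the fit of only 6 libraries 4, the fit without plant 3 of day 7 called 5, and leaving out a plant gave 0 to 2, with 22 at an unadjusted p under 0.05 in edgeR each time the count was 0. For day 7 over day 0 the fit of only 6 libraries called 63, and leaving out a plant gave 16 to 99, against 99 with all plants. Leaving out a plant or a library gave 26 to 85 for day 11 over day 7, against 86. Leaving out a plant gave 96 to 118 for day 11 over day 0, against 129, and 115 to 123 for roots over leaves, against 128. Fewer libraries remain in these fits. With the replicate block the 5 comparisons called 2, 95, 127, 77 and 126 models, and the block moved no count by over 1.5 times. These are counts of the low-confidence models alone. Where no count of all genes is given for a fit, a shift of the models cannot be told from one of the whole fit. Leaving out plant 1 of day 0 gave 97 and leaving out plant 3 of day 7 gave 104 for day 7 over day 0. In all, 73 counts under other settings, some of them given here, stayed within 1.5 times and 16 did not. Of 29 named gene results, 18 kept their call under all settings tried for them, 11 lost it under at least 1, and 0 changed sign. The 29 include TraesCS5A02G034300LC for roots over leaves and TraesCS1B02G470200LC for days 7 and 11 over day 0. In these comparisons both models were at 50 CPM only through a compared group. The choice favoured their direction, so their kept calls and signs are no support. The cause of the changes between settings was not tested.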
